A study of Mus musculus with 4 samples.

Results

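A set of 10 antioxidant genes that the transcription factor NRF2 is known to activate was followed in cultured mouse macrophages with and without Hem1. The genes were Hmox1, Nqo1, Gclm, Gclc, Srxn1, Txnrd1, Slc7a11, Me1, Gsr and Prdx1. They were taken by symbol from the deposited table, which measured 10 of 10, each with 1 probe set, among 19505 named genes. Macrophages were grown from femoral bone marrow over 8 days. The medium was RPMI with 10% fetal calf serum and 20% supernatant of L929 fibroblasts, which secrete CSF1, the factor on which macrophages grow. The groups were wild type (WT), 2 arrays, and Hem1 KO, 2 arrays. The design text states that each array of a genotype stands for a different mouse, and no treatment was applied to either group. Hem1, encoded by Nckap1l, is the blood-cell subunit of the WAVE complex, which activates branching of actin filaments. The age, strain and sex of the mice, and which part of the gene was removed, are not given in the sources used here.

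NRF2, encoded by Nfe2l2, is held low in unstressed cells by KEAP1, which presents it to a CUL3 ubiquitin ligase for destruction. Oxidants and electrophiles disable KEAP1. NRF2 then pairs with small MAF proteins and binds antioxidant response elements in its target genes, a site for which the repressor BACH1 competes. The target genes supply glutathione, thioredoxin reduction, NADPH and heme breakdown, and in macrophages the pathway accompanies phagocytosis, red cell clearance and inflammatory activation. An array of RNA reads neither NRF2 protein nor its binding.

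Start-site sequences of the target genes are shown because genes with the same motif letters lay on opposite sides of 0 in the comparison of genotypes. The RefSeq table (GRCm38.p6) held windows from 250 bases before to 50 bases after a start for 7 of the 10 genes, and Hmox1, Gclc and Gsr had no entry in it. The motif TGACNNNGC, the core of the response element, was searched on both strands together with TGANTCAGC, a related form of the element. The 2 motifs overlap, since TGACTCAGC matches both. TGACNNNGC occurred in 5 of 10 windows of these genes and in 12.4% of all 32851 windows of 300 bases, and TGANTCAGC in 3 of 10 and in 1.19%. Both strings were chosen with the sequences in view, and a match is a run of letters, not a shown binding site. Below, each window is printed 5′ to 3′ in the direction of the gene, to base 30 after the start, with the matched letters in capitals. Me1 lies at chr9:86695885-86696164 (minus strand), Srxn1 at chr2:152105274-152105553 (plus strand) and Prdx1 at chr4:116685349-116685628 (plus strand).
Me1: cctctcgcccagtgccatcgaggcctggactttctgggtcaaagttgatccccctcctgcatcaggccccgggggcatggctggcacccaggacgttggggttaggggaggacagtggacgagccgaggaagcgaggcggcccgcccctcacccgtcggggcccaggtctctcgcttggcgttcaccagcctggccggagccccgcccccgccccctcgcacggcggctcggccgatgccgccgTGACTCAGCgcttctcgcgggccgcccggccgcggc
Srxn1: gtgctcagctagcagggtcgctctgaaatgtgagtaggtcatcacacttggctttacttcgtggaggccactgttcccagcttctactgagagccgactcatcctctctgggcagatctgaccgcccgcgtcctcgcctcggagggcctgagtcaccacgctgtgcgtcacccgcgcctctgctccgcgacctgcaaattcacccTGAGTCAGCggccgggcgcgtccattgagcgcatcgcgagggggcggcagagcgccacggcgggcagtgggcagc
Prdx1: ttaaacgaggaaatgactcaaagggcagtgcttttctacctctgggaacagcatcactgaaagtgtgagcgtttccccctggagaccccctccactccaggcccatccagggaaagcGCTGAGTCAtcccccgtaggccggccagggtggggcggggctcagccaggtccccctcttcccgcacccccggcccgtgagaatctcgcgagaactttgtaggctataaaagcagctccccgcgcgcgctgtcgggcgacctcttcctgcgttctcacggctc
Me1 and Prdx1 carried the same 9 letters, TGACTCAGC, in Prdx1 read from the opposite strand from 133 to 125 bases before the start, and in Me1 across the start itself. In Srxn1 the match was TGAGTCAGC, from 45 to 37 bases before the start, and a second one, TGACCTAGC, lay from base 29 to 37 after the start on the opposite strand. Gclm held TGACGGTGC from 134 to 126 bases before its start, and 1 of 3 Txnrd1 windows held TGACAAAGC from 92 to 84 bases before. In the windows of Nqo1 and Slc7a11, and in a second window of Me1, neither string occurred. Sequence more than 250 bases before a start was not searched, so no match does not mean no element.

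Values are log2 units of RMA, an array method that corrects background and summarises the probes of a gene, so that 1 unit is a factor of 2. Probe sets bind with different strength, and levels are therefore compared only within a gene. Background was set on each array at the 95th percentile of 1450 chemosensory receptor genes and ran from 5.38 to 6.04. The arrays' medians over the genes ran from 6.42 to 6.95, and replicate 1 lay above replicate 2 in both genotypes. Nckap1l read 11.37 and 11.11 in WT against 10.04 and 9.62 in Hem1 KO, above background on all arrays. It was 2.66-fold lower in Hem1 KO (log2 difference -1.41, SE 0.32, adjusted p = 0.0467 by limma). That call ended without either WT array, without Hem1 KO replicate 2 (adjusted p = 0.0874 to 0.381) and when dim genes were left out (0.0866). All 9 measured macrophage markers, such as Csf1r, Adgre1 and Lyz2, were above background on all arrays. Stromal cell markers were higher in Hem1 KO: 6 of 9 passed the test, against 1.48% of all genes called higher. Their summed linear level was 2200 to 3010 on the WT arrays and 8280 to 10800 on the Hem1 KO arrays, with Lum and Thy1 below background on all arrays. Whether a difference reflects fewer cells of a type or less RNA per cell cannot be told apart in such bulk samples.

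The NRF2 target genes as a group did not move one way. Limma called 0 of 10 at an adjusted p under 0.05, against 1.61% of all genes. That was 0 higher in Hem1 KO, against 1.48%, and 0 lower, against 0.133%. Without adjustment 1 gene, Me1, was under the threshold of 0.05 and higher, against 5.2% of all genes in either direction and 3.63% higher. Of the 10 genes, 5 were above 0 and 5 under 0 in the difference Hem1 KO minus WT, with a median of 0.02, beside a median of 0.01 over all genes. The arrays of the genotypes did not overlap for 4 of 10 genes, 2 higher (Me1 and Hmox1) and 2 lower (Srxn1 and Prdx1) in Hem1 KO, against 25.8% of all genes. This split was 2 higher and 4 lower after centring the arrays on their medians, against 12.3% and 24.7% of all genes. After quantile normalization it was 3 and 3, against 17% and 21.9%. For 6 of 10 genes the whole 95% interval of the difference lay within a 2-fold change in either direction, against 13229 of 19505 genes. Such an interval bounds what these arrays leave possible without showing that levels were equal. Nqo1 is among the 6 and lay near background, so that its interval bounds the array value and not the RNA level. Me1, Srxn1, Slc7a11 and Gsr had intervals that reached past 2-fold. Centring the arrays on their medians moved the median over all genes to -0.09 and that of the target genes to -0.08, with 3 above and 7 under 0, so that the split of signs depended on the scaling. Without 1 array the median ran from -0.30 to 0.29.

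**Figure D1:**
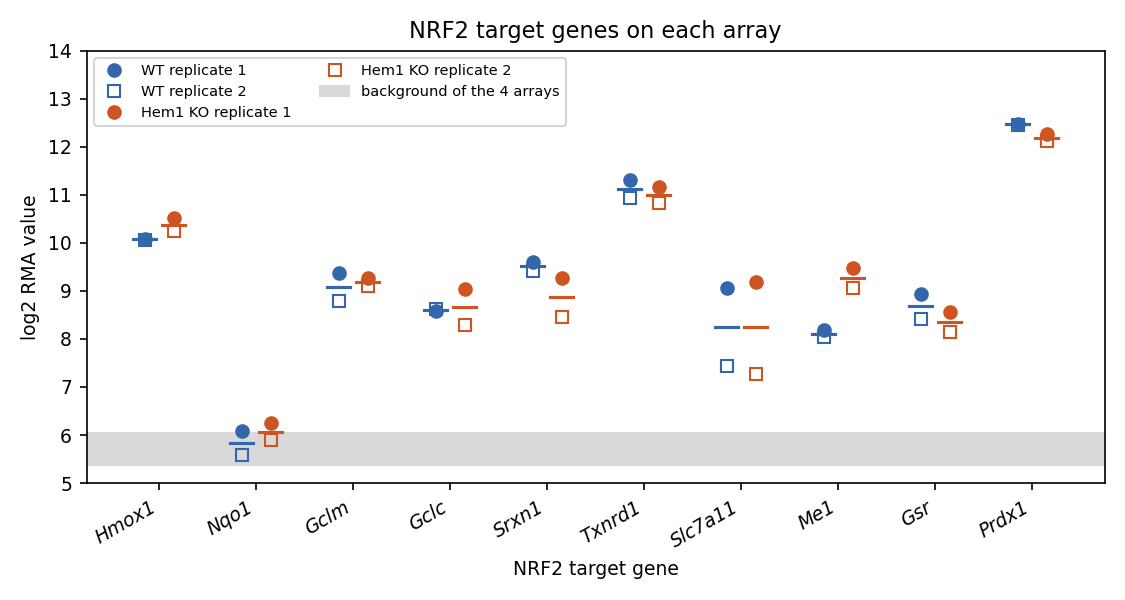
log2 RMA value of each NRF2 target gene (y axis) on each array, WT in blue and Hem1 KO in orange, filled circles for replicate 1, open squares for replicate 2 and bars for the mean of 2 arrays. Me1 is higher on both Hem1 KO arrays (9.48 and 9.06) than on the WT arrays (8.19 and 8.04), Slc7a11 splits by replicate in both genotypes, and Nqo1 lies near the grey band of background (5.38 to 6.04).

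Me1 encodes cytosolic malic enzyme, which makes NADPH from malate and also serves fatty acid synthesis. It read 8.19 and 8.04 in WT against 9.48 and 9.06 in Hem1 KO. Both Hem1 KO arrays were above both WT arrays, and the gap between the genotypes was wider than that between arrays of a genotype. The log2 difference was 1.15 (SE 0.32, 95% interval 0.46 to 1.84), a 2.22-fold higher level, and 2.57% of all genes differed by more in either direction. Over all genes it missed the threshold (adjusted p = 0.147 by limma). It passed after centring the arrays on their medians (1.05, adjusted p = 0.0382), after quantile normalization (1.19, adjusted p = 0.0393), with a prior variance that follows intensity (adjusted p = 0.00607) and when Hem1 KO replicate 2 was dropped (1.36, adjusted p = 0.0273). It did not pass when WT replicate 1 (adjusted p = 0.46), WT replicate 2 (adjusted p = 0.922) or Hem1 KO replicate 1 (0.94, adjusted p = 0.486) was dropped, and the difference was above 0 in every setting run. The stromal markers were higher beside it, with a median difference of 1.94, and their part in the difference of Me1 was not tested.

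**Figure D2:**
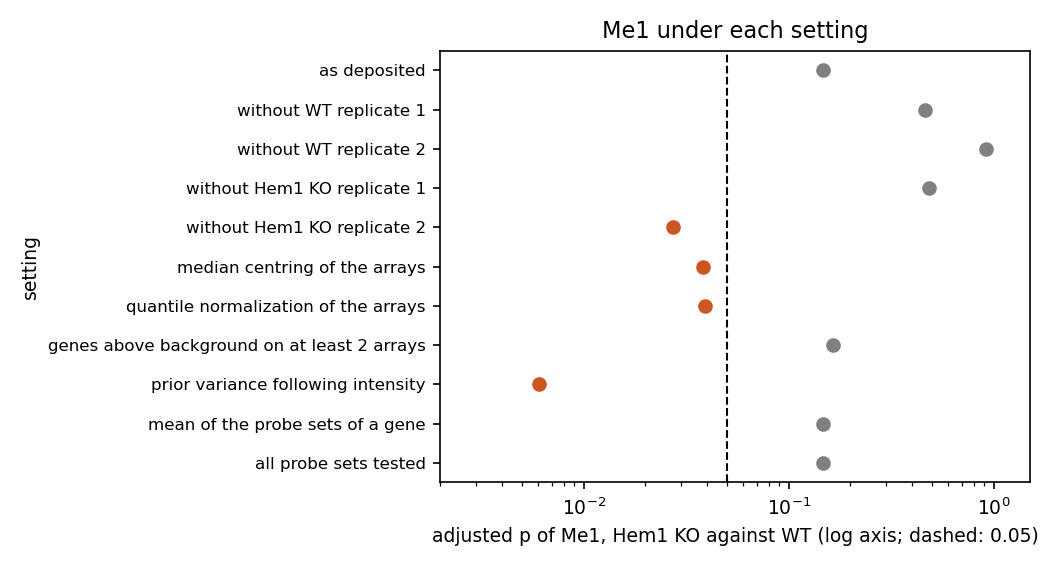
Adjusted p of Me1 by limma (x axis, log scale) under the deposited values and 10 other settings (y axis), orange where it is under 0.05 (dashed line) and grey otherwise, with the replicate block not plotted. Me1 has 1 probe set, so the settings that average or test all probe sets repeat the deposited result. Me1 passes in 4 of the other settings plotted and misses in the rest, from 0.00607 to 0.922.

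Heme breakdown and quinone reduction showed small differences. Hmox1 encodes heme oxygenase 1, which splits heme into biliverdin, iron and carbon monoxide. It read 10.09 and 10.07 in WT against 10.52 and 10.24 in Hem1 KO, so that the Hem1 KO arrays were both higher. The log2 difference was 0.30 (SE 0.31, 95% interval -0.37 to 0.98, adjusted p = 1 by limma), and it stayed between 0.16 and 0.44 in all settings. Nqo1, a quinone reductase widely used as a readout of NRF2, read 6.09 and 5.58 in WT against 6.25 and 5.89 in Hem1 KO. These ranges overlapped and lay less than 1 unit above each array's background (0.24, SE 0.33, 95% interval -0.48 to 0.95). Without WT replicate 2 the difference of Nqo1 was -0.02.

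The genes of glutathione synthesis and reduction differed by less than the spread between arrays. Gclc and Gclm encode the catalytic and modifier subunits of glutamate-cysteine ligase, the rate-limiting enzyme of glutathione synthesis. Gclc read 8.59 and 8.63 in WT against 9.03 and 8.30 in Hem1 KO, with the WT arrays between the Hem1 KO arrays (0.05, SE 0.34, 95% interval -0.68 to 0.78). Gclm read 9.38 and 8.80 in WT against 9.26 and 9.10 in Hem1 KO, with the Hem1 KO arrays between the WT arrays (0.09, SE 0.33, 95% interval -0.62 to 0.80). The signs of both turned after centring, to -0.05 and -0.01. Gsr, glutathione reductase, which regenerates glutathione with NADPH, read 8.94 and 8.41 in WT against 8.56 and 8.15 in Hem1 KO (-0.32, SE 0.33, 95% interval -1.04 to 0.40). Its ranges overlapped, and the difference stayed under 0 in all settings.

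Slc7a11 encodes the light chain of the cystine-glutamate exchanger, which brings in cystine for glutathione synthesis. It read 9.07 and 7.43 in WT against 9.19 and 7.28 in Hem1 KO, replicate 1 being the higher one in each genotype. The means of the genotypes, 8.25 and 8.24, were nearly equal (log2 difference -0.02, SE 0.58, 95% interval -1.27 to 1.23). The gap between replicates was 1.64 in WT and 1.92 in Hem1 KO, against medians of 0.28 and 0.38 over all genes. Its SD within genotypes, 1.26, was larger than that of 99.7% of the genes. With 1 array left out its difference ran from -0.98 to 0.94. Its partner chain Slc3a2, which serves several amino acid carriers, read 12.36 and 11.76 in WT against 11.86 and 11.58 in Hem1 KO.

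**Figure D3:**
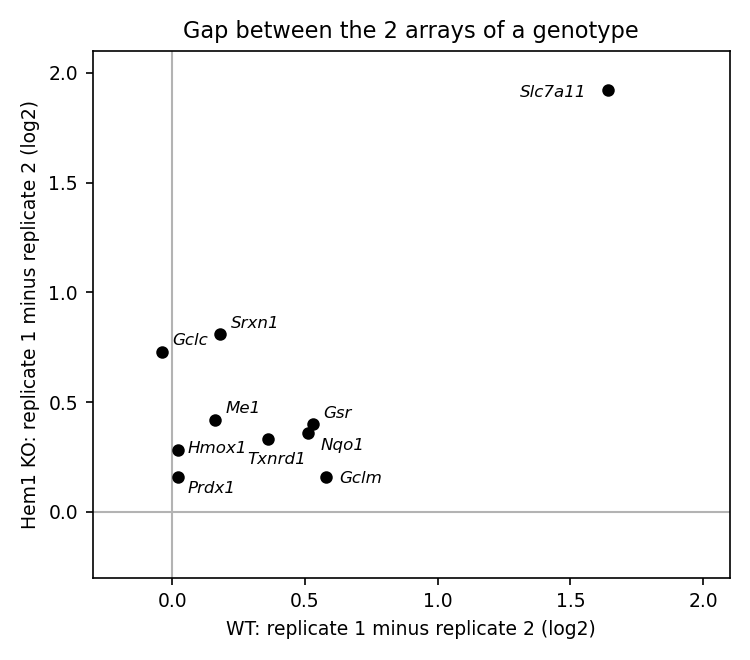
Replicate 1 minus replicate 2 on the log2 scale for each NRF2 target gene, in WT (x axis) and in Hem1 KO (y axis), 1 point per gene. Slc7a11 stands at 1.64 and 1.92, while the other 9 genes lie between -0.04 and 0.81 on both axes.

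Limma called none of the 3 genes of thiol repair, against 1.61% of all genes. The arrays of Srxn1 and Prdx1 were lower in Hem1 KO with no overlap, against 13.3% of all genes. Srxn1, sulfiredoxin, restores overoxidised peroxiredoxins. It read 9.60 and 9.42 in WT against 9.27 and 8.46 in Hem1 KO, both below WT, with Hem1 KO replicate 2 the lowest. The log2 difference was -0.64 (SE 0.35, 95% interval -1.39 to 0.11, adjusted p = 1 by limma), or -0.23 without Hem1 KO replicate 2 and -1.05 without Hem1 KO replicate 1. Prdx1, a peroxiredoxin that removes hydrogen peroxide and is a substrate of sulfiredoxin, read 12.48 and 12.46 in WT against 12.27 and 12.12 in Hem1 KO. Both Hem1 KO arrays were lower, by a small amount (-0.28, SE 0.31, 95% interval -0.95 to 0.39). Txnrd1, cytosolic thioredoxin reductase, read 11.30 and 10.94 in WT against 11.17 and 10.84 in Hem1 KO, with overlap (-0.12, SE 0.32, 95% interval -0.81 to 0.58).

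**Figure D4:**
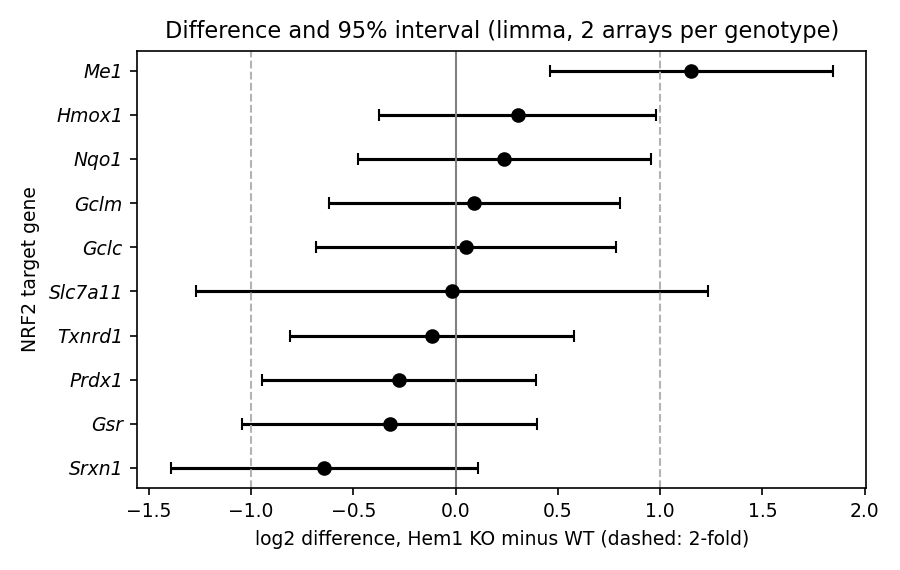
log2 difference Hem1 KO minus WT of each NRF2 target gene (x axis) with its 95% interval from limma, n = 2 arrays per genotype, dashed lines at a 2-fold change. Me1 has its interval above 0 (0.46 to 1.84), and the other 9 intervals include 0.

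The likeness of the target genes was measured as the root mean square distance between their gene-centred log2 values over the 4 arrays. The closest pairs were Nqo1 and Gclm (0.10), Txnrd1 and Gsr (0.12) and Gclm and Txnrd1 (0.14). The farthest were Slc7a11 and Me1 (0.95) and Srxn1 and Me1 (0.91). With 4 arrays these distances describe the arrays and carry no test. The nearest gene to Me1 was Hmox1 (0.43), and the nearest to Slc7a11 was Gsr (0.68). By their readings and not these distances, Me1 differed most by genotype among the target genes and Slc7a11 most by replicate.

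The regulators of NRF2 showed no called gene. Of 15 measured regulators, 0 passed in limma, against 1.61% of all genes, and 0 reached an unadjusted p under 0.05, against 5.2%, with 7 above and 8 under 0, and a median of 0.00, or -0.10 after centring. Nfe2l2 itself read 6.77 and 5.97 in WT against 6.71 and 6.04 in Hem1 KO, with the Hem1 KO arrays between the WT arrays (95% interval of the log2 difference -0.79 to 0.80). Keap1 read 9.56 and 9.34 in WT against 9.05 and 9.35 in Hem1 KO (-0.25, SE 0.32), and Bach1 11.66 and 11.02 in WT against 11.51 and 10.74 in Hem1 KO (-0.21, SE 0.37). The smallest p-values were those of Cul3, the ligase scaffold (-0.49, SE 0.33), and of the NRF2 relative Nfe2l3 (0.30, SE 0.34).

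Other genes that respond to NRF2, chiefly enzymes of detoxification, had 0 of 24 called by limma, against 1.61% of all genes, and 2 higher with an unadjusted p under 0.05, against 3.63%. In this list 9 were above and 15 under 0, against 48.2% of all genes under 0, with a median of -0.11, or 0.00 without Hem1 KO replicate 2. The 2 with an unadjusted p under 0.05 were Hspb8, a small heat shock protein, and Gsta4, a glutathione transferase for lipid aldehydes. Both were below background on the WT arrays. On Hem1 KO replicate 1, Hspb8 (6.17) and Gsta4 (6.10) lay close to that array's background (6.04). Hspb8 averaged 5.01 in WT, with an SD within genotypes of 0.01, against 6.17 and 6.16 in Hem1 KO (adjusted p = 0.119 by limma). Its Hem1 KO mean was 1.39-fold above background on the WT arrays. Gsta4 read 5.37 and 4.54 in WT against 6.10 and 5.89 in Hem1 KO, 1.23-fold by the same measure (adjusted p = 0.365 by limma). Hspb8 and Gsta4 were among 5 of 24 genes with both Hem1 KO arrays above both WT arrays, against 12.5% of all genes. In 10 of 24 both Hem1 KO arrays were below both WT arrays, against 13.3%. After centring these counts were 7 and 8, against 12.3% and 24.7%. The enzymes of NADPH supply other than Me1 had 0 of 15 called by limma, against 1.61% of all genes, and without adjustment 1 was higher and 1 lower at p under 0.05, against 5.2% in either direction. These were mitochondrial Aldh1l2 and cytosolic isocitrate dehydrogenase Idh1. Aldh1l2 read 5.35 and 5.05 in WT, below background, against 6.54 and 5.90 in Hem1 KO (adjusted p = 0.339 by limma). Its Hem1 KO mean was 1.44-fold above background on the WT arrays. Idh1 read 10.57 and 10.64 in WT against 9.69 and 10.02 in Hem1 KO (-0.75, SE 0.32, adjusted p = 0.757). Aldh1l2 passed without Hem1 KO replicate 2 (adjusted p = 0.0341), and Idh1 with a prior variance that follows intensity (adjusted p = 0.0197). Of 16 thioredoxin and peroxiredoxin genes, 0 passed in limma, against 1.61% of all genes, and 0 reached an unadjusted p under 0.05, against 5.2%. Of these genes 12 were under 0, with a median of -0.16, and 9 after quantile normalization, with a median of -0.06, against 48.2% of all genes under 0 as deposited. Without WT replicate 1 the median was -0.08. The stress-induced Sesn1 (-0.70, SE 0.35) and the methionine sulfoxide reductase Msra (-0.61, SE 0.32) had the smallest p-values.

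As deposited, the called antioxidant enzymes lay outside the NRF2 targets, of which 0 of 10 were called, against 1.61% of all genes. Me1 passed in some other settings, and 10 genes are too few to tell 0 calls from that share. In the glutathione list limma called 2 of 24 higher, against 1.48% of all genes, and 0 lower, against 0.133%. Gpx8, a glutathione peroxidase of the endoplasmic reticulum, read 7.27 and 6.70 in WT against 9.81 and 8.85 in Hem1 KO, 5.08-fold higher (2.35, SE 0.38, adjusted p = 0.00457 by limma). Gpx3, the secreted glutathione peroxidase, read 7.87 and 7.24 in WT against 10.35 and 9.17 in Hem1 KO, 4.63-fold higher (2.21, SE 0.40, adjusted p = 0.0108). Among 6 superoxide dismutases, their copper chaperone and metallothioneins, limma called 1, against 1.61% of all genes. It was Sod3, the extracellular superoxide dismutase, which read 4.67 and 4.73 in WT, below background, and 6.98 and 6.15 in Hem1 KO. Sod3 was at least 1.83-fold higher, the Hem1 KO mean against background on the WT arrays (adjusted p = 0.0124). The intracellular Sod1 (-0.19, SE 0.31), Gpx1 (-0.37, SE 0.31) and Gpx4 (-0.29, SE 0.31) were looked up after the called genes. In each, both Hem1 KO arrays were below both WT arrays by a small amount, a pattern seen in 13.3% of all genes as deposited. Other genes of these lists differed: the arrays of Sod2 (-0.07, SE 0.33) and the copper chaperone Ccs (0.14, SE 0.32) overlapped. For Gpx7 (1.02, SE 0.31), not called, both Hem1 KO arrays were above both WT arrays, a pattern seen in 12.5% of all genes. The stromal markers were higher beside Gpx8, Gpx3 and Sod3 (median 1.94, summed level 2200 to 3010 in WT and 8280 to 10800 in Hem1 KO), and their part was not tested. When only genes above background on at least 2 arrays were tested, Gpx3 (adjusted p = 0.0821) and Sod3 (adjusted p = 0.0577) no longer passed.

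Genes of heme and iron handling, the setting in which Hmox1 acts in macrophages, mostly lay under 0. Of 20 measured, 17 were under 0 with a median of -0.34, against 48.2% of all genes under 0. Without WT replicate 1 the median was -0.16 and 15 of 20 were under 0. Limma called 0, against 1.61% of all genes, while 1 reached an unadjusted p under 0.05, against 5.2%. In 14 of 20 both Hem1 KO arrays were below both WT arrays, against 13.3% of all genes, and after centring in 10 of 20, against 24.7%. Alas1, which catalyses the committed step of heme synthesis, read 11.12 and 11.34 in WT against 10.46 and 10.32 in Hem1 KO (-0.84, SE 0.31, adjusted p = 0.526), and passed with a prior variance that follows intensity (adjusted p = 0.000567). The haptoglobin-hemoglobin receptor Cd163 read 7.22 and 7.15 in WT against 6.56 and 6.62 in Hem1 KO (-0.59, SE 0.31). Macrophage markers lay under 0 to a like extent, with a median of -0.37 over 9 genes and a summed linear level of 31000 to 38400 in WT and 26200 to 28400 in Hem1 KO, and their part was not tested. Hmox1, with a difference of 0.30, was on the other side of 0 from most of these genes.

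**Figure D5:**
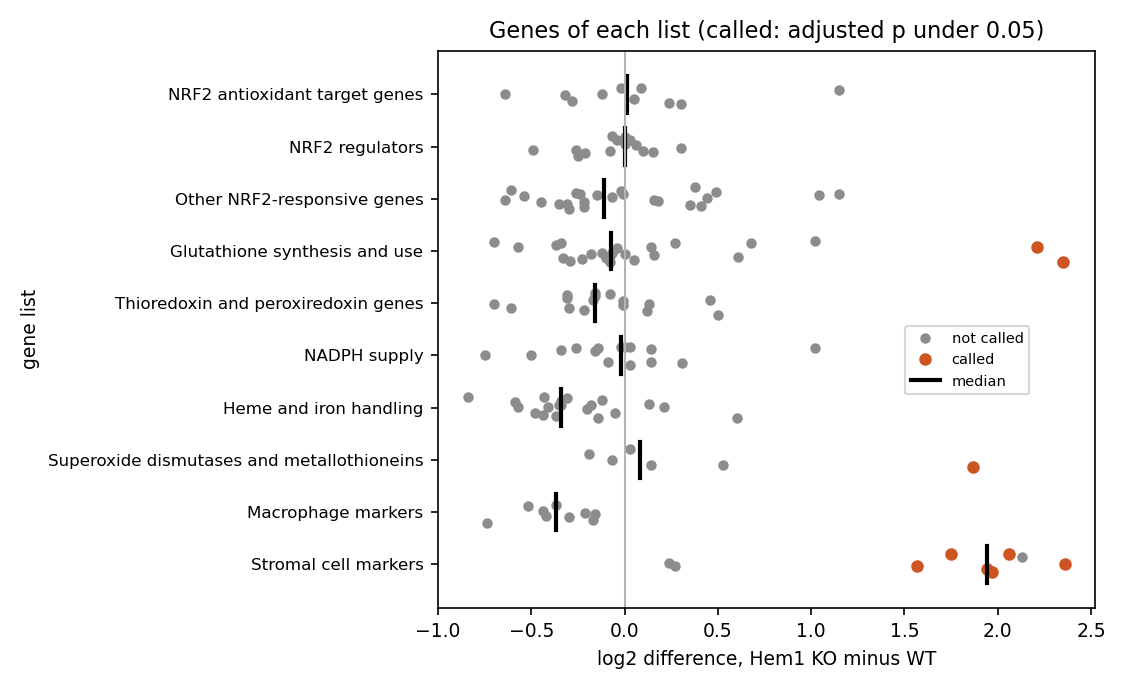
log2 difference Hem1 KO minus WT (x axis) of every measured gene of each list (y axis), 1 point per gene, orange where limma called it and grey otherwise, with black bars at the list medians. The NRF2 target genes have a median of 0.02 and no called gene, Gpx8, Gpx3 and Sod3 are the called antioxidant genes outside them, and the stromal markers have a median of 1.94.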

How the data were processed

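RNA of 4 macrophage cultures, 2 WT and 2 Hem1 KO, was measured on 1 Affymetrix array each, and the deposited log2 values were used as they stand. The submitters' processing notes name RMA without a version or settings. That the scale is log2 follows from the range, 2.70 to 13.98. Array medians differed, so that a quantile step across these arrays was not visible. The platform annotation gives 1 gene symbol for 19572 of the table's 29129 entries, several for 0 and no symbol for 9557, which were left out. For 55 genes with several probe sets the brightest by mean was kept, which left 19505 genes. The test was limma 3.58.1 under R 4.3.3 (eBayes after lmFit, genotype as the only term, 11.2 prior degrees of freedom, two-sided, Benjamini-Hochberg over all genes, called at adjusted p under 0.05). n is 2 arrays per genotype. An exact permutation test of 2 against 2 cannot go below 0.333. The number of arrays limits the precision. The fit was tested on simulated data.

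The genes, the lists and the background level were chosen with earlier results of these data known. Named are all 10 target genes, Nfe2l2, Keap1, Bach1, Nckap1l and, per list, called genes up to 4 or else the 2 above background with the smallest p. Others were chosen after their values were seen: Slc3a2, Sod1, Sod2, Ccs, Gpx1, Gpx4 and Gpx7, the markers given as examples and the genes of the closing section. Fold bounds set a gene's mean on the brighter arrays against the higher of background and its own value on each dim array. They rest on the measured means and carry no sampling error. Alternatives left out each array, put replicate numbers in as a block, median-centred or quantile-normalized the values, left out dim genes, let the prior follow intensity, averaged or tested all probe sets, or raised the threshold to 0.1. Where 1 array of a group is left, its spread is taken to be that of the other group.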

Additional observations from a re-analysis of the deposited data

How the results depend on the processing

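Limma called 1 target gene higher, Me1, in place of 0 with the replicate block, after median centring, after quantile normalization and with a prior variance that follows intensity, and 0 to 1 with 1 array left out. It called 0 lower in every setting run. Over all genes it called 288 higher and 26 lower. With the replicate block these were 620 and 199, with only genes above background on at least 2 arrays 174 and 8, and with 1 array left out 185 to 545 and 26 to 101. Lower calls were 70 after centring, 16 after quantile normalization and 205 with the intensity prior. The replicates share only a number: the deviations of same-numbered arrays correlated at 0.24 across genes, a hint from the data and not from the design. With the replicate block Me1 passed (1.15, adjusted p = 0.0038), as did Hspb8 (adjusted p = 0.00344), Gsta4 (0.0134), Aldh1l2 (0.0113) and Alas1 (0.041).

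Signs turned after centring for Gclm (-0.01), Gclc (-0.05) and Nfe2l2 (-0.10), and after quantile normalization for Txnrd1 (0.01), Slc7a11 (0.02) and Nfe2l2 (-0.10). With 1 array left out, values ran from -0.02 to 0.49 for Nqo1, -0.20 to 0.38 for Gclm, -0.32 to 0.42 for Gclc, -0.29 to 0.06 for Txnrd1, -0.98 to 0.94 for Slc7a11, -0.40 to 0.41 for Nfe2l2, -0.60 to 0.17 for Bach1 and -0.04 to 0.64 for Nfe2l3. The cause was not tested. Over the 10 target genes and 12 settings each, 104 values kept their sign and side of the threshold, 5 passed it (all Me1) and 11 changed sign. All 11 sign changes came from leaving out an array or rescaling the arrays. The other settings could not turn a sign. Each target gene had 1 probe set, and the block, filter, prior and threshold acted on p alone. Signal over background limits Nqo1, Nfe2l2 and the genes dim in WT.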

Other observations

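Slc7a11 was 1 of 45 genes in which replicate 1 exceeded replicate 2 by more than 1.5 log2 units in both genotypes, and 0 genes had the opposite pattern. The group was chosen after its values were seen. It included inflammatory genes: Ptgs2, the inducible prostaglandin synthase, with gaps of 3.58 in WT and 3.62 in Hem1 KO, the cytokine Il1b (3.43 and 3.57), the chemokine Cxcl2 (3.20 and 2.38) and the cytokine Osm (2.04 and 1.95). It also held 3 class II presentation genes, H2-Aa, H2-Ab1 and H2-Eb1, the immediate early genes Fos, Fosb, Nr4a1 and Nr4a2, and Spic, a transcription factor of heme-handling macrophages, which read 8.70 and 4.93 in WT against 7.60 and 5.68 in Hem1 KO. After median centring 12 genes kept such a gap, and Slc7a11, at 1.24 and 1.45, was not among them. Of the NRF2 target genes, Slc7a11 was the only one in the group. The labels name no batch or day that would tell the replicates apart.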
